A study of Mus musculus with 16 samples.

Results

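The comparison described here asked for which genes the change between day 4 and week 2 after interleukin-33 (IL-33) treatment differed between mouse lung and the mediastinal lymph node, which drains the lung. For each gene, the change in the lung (week 2 minus day 4) was subtracted from the same change in the node. A positive value therefore means that the node's change lay above the lung's, and a negative value that it lay below. The comparison used 12 of the 16 arrays of the series, all of them in the 4 groups with both a tissue and a time in common, and 22180 genes.

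Group 2 innate lymphoid cells (ILC2s) are lymphocytes without antigen receptors that sit in mucosal tissues and release type 2 cytokines when an epithelial alarm signal such as IL-33 reaches them. On activation they divide, and part of the response is seen in the draining lymph node. Genes of mitosis mark dividing cells, interferon-stimulated genes are switched on through STAT transcription factors when cells sense interferon, and immediate early genes are transcribed within minutes of a stimulus.

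Expression was measured on single-colour arrays from total RNA of isolated ILC2s. The 4 groups were lung ILC2s at day 4 and at week 2 and mediastinal node ILC2s at day 4 and at week 2, each with 3 arrays titled as biological replicates. All 12 came from mice given IL-33, intranasally by the sample labels and by injection by the series' design text. The lung samples are labelled as C57BL/6J, and the strain of the node samples is not given in the sources used here. Neither the sort markers, the IL-33 dose, nor the number of mice per array is given there, so p-values cover the spread between these arrays. Untreated lung ILC2s (n = 2) and lung ILC2s at 4 months (n = 2) were not part of the contrast.

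The values are log2 signals, 1 per gene and array, normalised by the authors to a common distribution. Over all genes and arrays the 40th percentile was 3.67, the median 4.16 and the 95th percentile 8.10, so signals under about 4 lie in the dim part of the range. Arrays of a group correlated at 0.977 to 0.986. The 12 measured ILC2-defining genes, among them Gata3, Il7r and Thy1, had a mean signal of 9.12 to 9.67 on every array, and limma called 0 of them for a tissue-dependent change (2 at an unadjusted p under 0.05). In RNA from a cell population, fewer cells of a type and less RNA per cell cannot be told apart.

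The lung arrays were not alike in markers of other cells. The mean signal of 21 macrophage markers was 6.18, 6.22 and 4.55 on the day 4 lung arrays and 4.19, 3.96 and 5.39 on the week 2 lung arrays, against 3.62 to 3.84 on the 6 node arrays. Replicates 1 and 2 of the day 4 lung and replicate 3 of the week 2 lung thus stood apart. The mean of 11 neutrophil markers was high on the same 3 arrays, with 4.46, 4.28 and 3.17 at day 4 and 3.47, 3.23 and 4.19 at week 2 in the lung and 2.96 to 3.06 in the node. The limma fit called 0 of the 21 macrophage markers (5 at an unadjusted p under 0.05), and their median tissue difference in change was 0.73. Without those 3 arrays, which keeps replicate 3 as the only day 4 lung array, the median was 0.10. A median does not describe single markers. The lung arrays kept, at 4.55, 4.19 and 3.96, still read above the node arrays, so that fit is not free of such signal. From 0 to 3 of the 21 were called when any 1 array was left out. The part of these cells in the results was not tested. Values without the 3 arrays are given below for some lists and genes. Calls kept or lost there rest on a single day 4 lung array.

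Of the 22180 genes, 102 (0.460%) had a change from day 4 to week 2 that differed between the tissues (limma, Benjamini-Hochberg adjusted p under 0.05). The difference was positive for 55 genes (0.248%) and negative for 47 (0.212%). Without the 3 lung arrays highest in macrophage markers the count was 62, of which 48 were positive and 32 were among the 102. Fitting all 16 arrays together gave 40 genes, all of them among the 102. Of the 39 called genes named below by rule, 14 were called with each array left out in turn, and 25 were lost without at least 1 array. The 14 were Tff1, Bex1, Asic3, Itgae, Egr2, Lag3, Ccna2, Cpa3, Nuf2, Kif23, Kif14, Cenpf, Kif18a and Ccr2. Lost in 6 or more of those 12 fits were 20, among them all 4 interferon-stimulated genes, Il4, Irf4, Tnfsf8, Ccl24, Cxcl3, Tigit, Il1r2 and Cyp51, whose estimates kept their sign.

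The positive genes mostly fell in the lung, and the negative genes had their steeper fall in the node. Among the 55 positive genes the estimated lung change was below 0 for 52, its median was -1.30, and the median node change was 0.30. The node estimate was above 0 for 36 of the 55, and the 2 tissues' estimates had opposite signs for 33. In the lung alone 46 of the 55 fell, against 2.20% of all genes, and none rose, against 0.920%. In the node 9 of the 55 rose, against 0.830% of all genes, and 3 fell, against 1.68%. For the negative genes the node change was below 0 for all 47, with a median of -2.43 against -0.62 in the lung. In the node 42 of the 47 fell, against 1.68% of all genes. In the lung 22 of the 47 fell, against 2.20% of all genes, and 4 rose, against 0.920%. The estimates had opposite signs for 11. These counts are a description, since the genes were selected by the difference between these same changes.

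**Figure D1:**
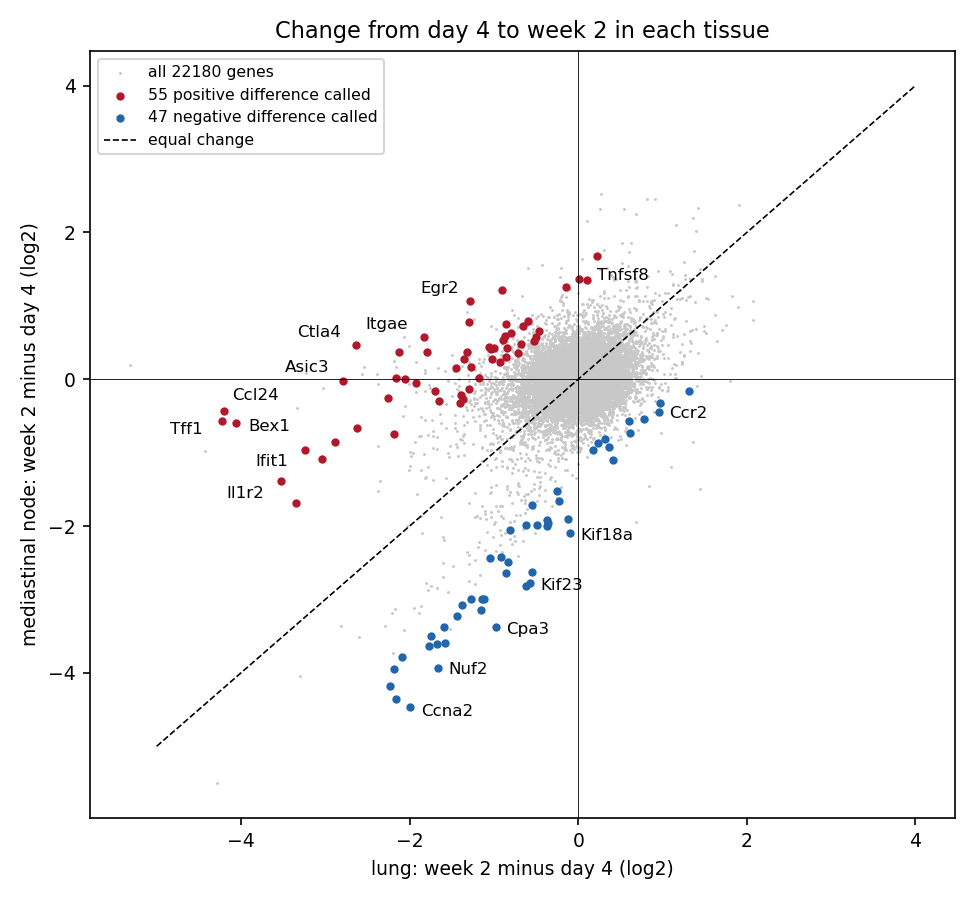
Each point is a gene, placed by its change from day 4 to week 2 in the lung (horizontal axis, log2) and in the node (vertical axis, log2), with genes called for a positive difference in red and for a negative one in blue. The 55 red points lie above the line of equal change, most of them left of 0 on the lung axis, and the 47 blue points lie below it, all under 0 on the node axis.

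Seen by time, most of these genes separated the tissues at day 4 and less so at week 2. At day 4 the lung mean was above the node mean for 53 of the 55 positive genes, with a median node-minus-lung distance of -1.40, and at week 2 the median distance was 0.24. All 47 negative genes were higher in the node at day 4, by a median of 1.71, and at week 2 the median distance was -0.07. The distance was smaller in size at week 2 for 44 of the 55 and for 41 of the 47. It was under 0.5 at week 2 for 31 of the 55 and 36 of the 47, whereas at day 4 it was that small for 5 and 3. These distances are a description, since the called contrast is the change in them.

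**Figure D2:**
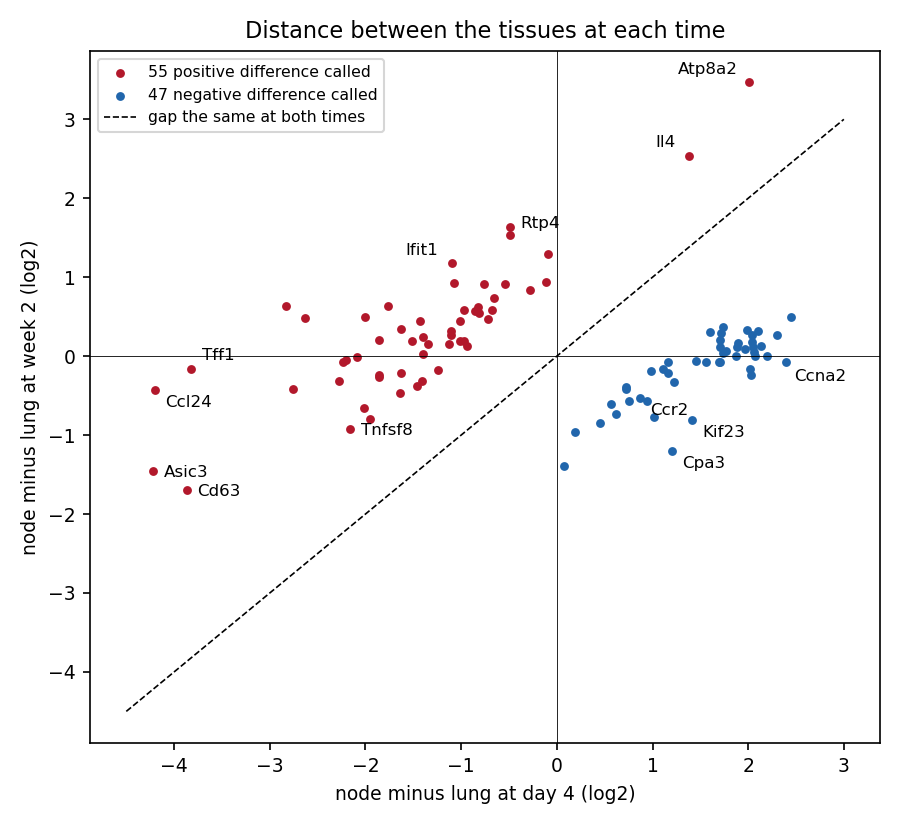
Node minus lung at day 4 (horizontal axis, log2) against node minus lung at week 2 (vertical axis, log2) for the 102 called genes. Blue points sit right of 0 and most red points left of 0 at day 4, while at week 2 most points of both colours lie near 0. Il4 and Atp8a2 are among those whose distance grew.

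The gene with the clearest difference was Tff1, which encodes a trefoil peptide secreted by mucosal epithelia. It read 9.20, 8.88 and 8.79 on the day 4 lung arrays and 4.90, 4.76 and 4.52 at week 2. In the node the signals were 5.43, 5.06 and 4.92 at day 4 and 4.80, 4.58 and 4.32 at week 2. Only the day 4 lung arrays were high, and they did not overlap any other group. Tff1 fell by 4.22 in the lung, the node change of -0.57 did not pass (adjusted p = 0.156), and the difference was 3.65 ± 0.26 (SE), a 12.6-fold difference in change (adjusted p = 2.59e-05). Untreated lung ILC2s, as background, read 4.06 and 4.73. The mean of 11 epithelial and endothelial markers was 4.55 to 4.72 on the day 4 lung arrays and 4.26 to 4.98 at week 2. That mean covers unlike members, since Scgb1a1, given at the end, read well above it on every lung array of both times.

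Asic3, a proton-gated sodium channel best known from sensory neurons, had the next smallest adjusted p. Its day 4 lung signals were 8.51, 8.22 and 8.09 and its week 2 lung signals 5.47, 5.44 and 5.54. The node arrays read 4.01, 4.08 and 4.07 at day 4 and 3.86, 4.25 and 4.00 at week 2. The lung was above the node at both times without overlap, and the distance shrank from 4.22 to 1.45. The fall of 2.79 in the lung against a node change of -0.02 gave a difference of 2.77 ± 0.21 (SE, adjusted p = 2.83e-05).

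Bex1, a small adaptor protein studied mainly in neurons, read 8.86, 7.93 and 8.28 in the day 4 lung and 4.00, 4.45 and 4.43 in the week 2 lung. Its node signals were 5.28, 5.67 and 5.64 at day 4 and 5.28, 5.45 and 4.08 at week 2. The day 4 lung was again the only high group, and the node groups overlapped. The difference was 3.47 ± 0.44 (SE, adjusted p = 0.00422).

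Cd63, a tetraspanin of granules and endosomes, fell by 2.16 in the lung against a node change of 0.02, and its difference was 2.18 ± 0.39 (SE, adjusted p = 0.0296). With the macrophage marker mean as a covariate in limma it was 1.63 and not called (adjusted p = 0.0876). The Cd63 call was lost in 10 of 23 alternatives. Mt2, a metal-binding metallothionein, read 7.12, 7.16 and 6.15 in the day 4 lung, 4.12, 4.62 and 5.34 in the week 2 lung and 4.68 to 5.34 in the node. Its week 2 lung value was highest on replicate 3 and its day 4 value lowest on replicate 3, as for the macrophage markers. The difference for Mt2 was 2.49 ± 0.41 (SE, adjusted p = 0.0192), and 2.15 without the 3 arrays. Adgrg1, an adhesion receptor (2.16), and Nrgn, a calmodulin-binding protein (2.07), also had positive differences. With the covariate neither was called, with 2.29 for Adgrg1 (adjusted p = 0.0665) and 2.14 for Nrgn (adjusted p = 0.0601). Without the 3 arrays the differences of Cd63, Adgrg1 and Nrgn were 2.08, 2.84 and 1.79.

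**Figure D3:**
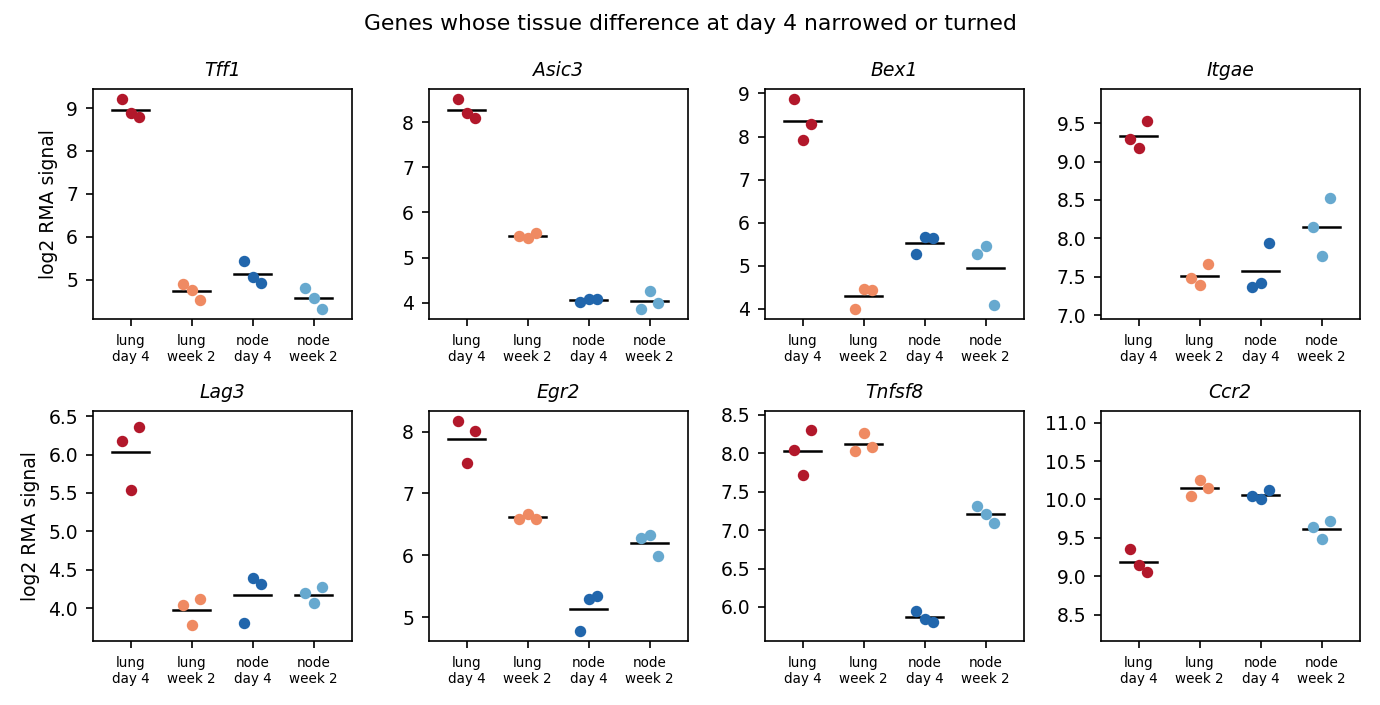
Log2 signal (vertical axis) of 8 called genes on each of the 3 arrays of the 4 groups, with the group mean as a line. The day 4 lung group is the highest for Tff1, Asic3, Bex1, Itgae, Lag3 and Egr2, the day 4 node group is the lowest for Tnfsf8, and Ccr2 runs in opposite directions in the lung and the node.

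Among 24 homing, egress and residency genes, 2 passed, in opposite directions (0.460% of all genes passed). The list's median difference of 0.02 was near the -0.01 of all genes. Itgae encodes CD103, the integrin chain that pairs with beta 7 and binds E-cadherin on epithelium. Its signals were 9.30, 9.18 and 9.53 in the day 4 lung and 7.48, 7.39 and 7.66 in the week 2 lung. Node signals were 7.36, 7.42 and 7.94 at day 4 and 8.15, 7.77 and 8.53 at week 2. The lung was higher at day 4 and lower at week 2, without overlap at either time. Itgae fell by 1.83 in the lung, the node change of 0.57 did not pass (adjusted p = 0.210), and the difference was 2.41 ± 0.29 (SE, adjusted p = 0.00328). Haspin, a mitotic kinase gene whose annotated span overlaps that of Itgae, had a difference of 1.19 (adjusted p = 0.0476), and these arrays' signals for overlapping genes may not be separate.

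Ccr2, the receptor for the monocyte chemoattractant CCL2, was the other one. In the lung it rose from 9.36, 9.14 and 9.06 to 10.04, 10.25 and 10.15. The node signals were 10.04, 10.00 and 10.12 at day 4 and 9.64, 9.49 and 9.72 at week 2. The order of the tissues thus turned, with the node above the lung at day 4 and below it at week 2, without overlap at either time. The lung rise of 0.96 passed (adjusted p = 0.00123), the node change of -0.44 did not (adjusted p = 0.138), and the difference was -1.40 ± 0.19 (SE, adjusted p = 0.00622). Of the other homing genes, S1pr1, the egress receptor, fell in both tissues (by 0.82 and 1.08) with a difference of -0.25 (adjusted p = 0.764), and Cxcr6, Klf2 and Cd69 had differences of 0.15, -0.33 and 0.25 that did not pass.

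Of 24 costimulatory and inhibitory molecules, 4 had a positive difference (0.248% of all genes did) and none a negative one, and the list's median difference was 0.48 against -0.01 for all genes. Ctla4, an inhibitory receptor that competes for CD80 and CD86, read 6.69, 7.02 and 8.05 in the day 4 lung and 4.85, 4.58 and 4.40 in the week 2 lung. Its node signals were 4.09, 4.16 and 5.63 at day 4 and 5.19, 4.97 and 5.10 at week 2. The day 4 lung stood above every other array, and replicate 3 was the highest of the day 4 group in both tissues. The difference was 3.10 ± 0.53 (SE, adjusted p = 0.0210).

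Lag3, an inhibitory receptor for MHC class II, read 6.18, 5.54 and 6.36 in the day 4 lung and 3.78 to 4.39 on all 9 other arrays. It fell by 2.05 in the lung and its node change was 0.00, which gave a difference of 2.05 ± 0.30 (SE, adjusted p = 0.00871). Tigit, an inhibitory receptor for nectin-like ligands, fell in both tissues, by 3.04 in the lung and 1.08 in the node, and the difference was 1.96 ± 0.35 (SE, adjusted p = 0.0293). Without the 3 arrays highest in macrophage markers the differences of Ctla4, Lag3 and Tigit were 3.79, 2.45 and 2.42. That fit keeps replicate 3 as the only day 4 lung array, and it was the highest of its group for all 3 receptors.

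Tnfsf8, the ligand of CD30, had another shape. In the lung it read 8.05, 7.72 and 8.31 at day 4 and 8.03, 8.26 and 8.08 at week 2. In the node it rose from 5.95, 5.84 and 5.80 to 7.32, 7.21 and 7.09. The lung groups overlapped and the node groups did not, so the difference of 1.25 ± 0.22 (SE, adjusted p = 0.0296) came with a node rise of 1.35 (adjusted p = 1.44e-04) and a lung change of 0.10 (adjusted p = 0.835).

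Of 25 lymphoid transcription factors 1 passed (0.460% of all genes did), Irf4, which acts downstream of antigen and cytokine receptors in lymphocytes. Its signals were 7.72, 7.57 and 8.45 in the day 4 lung, 6.27, 6.26 and 6.11 in the week 2 lung, 6.86, 7.11 and 6.86 in the day 4 node and 6.64, 6.69 and 7.03 in the week 2 node. Irf4 fell by 1.70 in the lung, the node groups overlapped, and the difference was 1.55 ± 0.29 (SE, adjusted p = 0.0353). Gata3 and Rora, which specify ILC2s, had differences of -0.39 (adjusted p = 0.691) and 0.20 (adjusted p = 0.845).

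Of 24 immediate early genes, 12 rose and none fell in the node, where 0.830% of all genes rose and 1.68% fell. In the lung 3 rose and 2 fell, where 0.920% of all genes rose and 2.20% fell. The test of the difference itself called 1 of the 24, against 0.460% of all genes. The mean signal of the list was 7.79, 7.78 and 8.85 on the day 4 lung arrays and 6.96, 6.97 and 7.69 on the day 4 node arrays. Replicate 3 was thus the highest day 4 array in both tissues, while the week 2 arrays lay between 8.22 and 8.66. The median difference was 0.76, and 20 of the 24 estimates were above 0. At an unadjusted p under 0.05 there were 11 of the 24. Without the 3 lung arrays highest in macrophage markers the median was 1.25. That fit keeps replicate 3, with its list mean of 8.85, as the only day 4 lung array, so the larger median rests on it.

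The one that passed was Egr2, a zinc finger factor induced by receptor signalling. It read 8.17, 7.49 and 8.01 in the day 4 lung and 6.59, 6.66 and 6.59 in the week 2 lung. In the node it read 4.78, 5.29 and 5.34 at day 4 and 6.28, 6.32 and 5.98 at week 2. Egr2 fell by 1.28 in the lung (adjusted p = 0.00226) and rose by 1.06 in the node (adjusted p = 0.00737), with no overlap between times in either tissue. The difference was 2.34 ± 0.28 (SE, adjusted p = 0.00328). The distance between the tissues shrank from 2.76 to 0.42. Egr1, a factor of the same family, rose in both tissues, by 1.36 in the lung and 2.20 in the node, with a difference of 0.85 (adjusted p = 0.461).

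Of 19 cytokine genes, 1 passed (0.460% of all genes did). Il4, the cytokine that drives type 2 helper differentiation and IgE switching, read 5.78, 5.61 and 5.95 in the day 4 lung and 5.26, 5.02 and 5.02 in the week 2 lung. The node arrays were higher at both times, with 7.15, 7.09 and 7.23 at day 4 and 7.62, 7.88 and 7.40 at week 2. Il4 fell by 0.68 in the lung (adjusted p = 0.0288), the node change of 0.48 did not pass (adjusted p = 0.161), and the distance between the tissues went from 1.38 to 2.54. The difference was 1.16 ± 0.22 (SE, adjusted p = 0.0385). Without the 3 lung arrays highest in macrophage markers it was 1.29 and not called (adjusted p = 0.155), which left 0 of the 19 cytokines called by limma, with 4 at an unadjusted p under 0.05.

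The main ILC2 effector cytokines did not pass. Il13, which drives mucus and airway reactivity, had the highest cytokine signal, with 11.55, 11.34 and 12.08 in the day 4 lung, 11.01, 11.26 and 10.71 in the week 2 lung and 10.26 to 10.88 in the node, and a difference of 1.03 ± 0.28 (SE, adjusted p = 0.158). With the macrophage marker mean as a covariate the Il13 difference was 1.45 and passed (adjusted p = 0.0225). Il5, the eosinophil growth factor, had a difference of -0.00 ± 0.22 (SE, adjusted p = 0.998). Csf2 and Il9 had differences of -0.01 and 0.64. Il2, a T cell growth factor, rose in both tissues, by 2.07 in the lung and 1.07 in the node, and its difference of -1.01 did not pass (adjusted p = 0.277).

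Among 22 cytokine receptor genes 1 passed (0.460% of all genes did), the decoy receptor Il1r2, which binds IL-1 without signalling. It read 9.22, 8.85 and 9.29 in the day 4 lung, 5.72, 5.31 and 5.74 in the week 2 lung, 7.32, 6.80 and 6.65 in the day 4 node and 6.39, 5.12 and 5.11 in the week 2 node. Il1r2 fell in both tissues, by 3.53 in the lung and 1.39 in the node, and the difference was 2.15 ± 0.42 (SE, adjusted p = 0.0439). The tissues were apart at day 4 and overlapped at week 2. Without the 3 arrays highest in macrophage markers the value was 2.40 (adjusted p = 0.163). Il17rb, Il7r, Il2ra and Kit had differences between -0.43 and 0.20 that did not pass.

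Of 14 chemokine genes 2 passed, both positive (0.248% of all genes did), and the list's median difference was 1.13 against -0.01 for all genes. Ccl24, the eosinophil attractant eotaxin 2, which macrophages also make, read 9.22, 8.59 and 6.58 on the day 4 lung arrays and 3.84, 3.60 and 4.34 on the week 2 lung arrays. Its node signals were 3.09 to 4.18. The day 4 lung was the only high group, and within it the array with the fewest macrophage marker transcripts was the lowest. The difference of 3.77 ± 0.67 (SE, adjusted p = 0.0296) was 2.43 without the 3 arrays highest in macrophage markers. In that fit the lowest array is the only one of the day 4 lung.

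Cxcl3, a neutrophil attractant, fell in both tissues. Its signals went from 7.45, 7.59 and 7.62 to 4.54, 3.94 and 4.11 in the lung. In the node they went from 6.40, 6.80 and 7.18 to 5.21, 5.41 and 4.69. The falls were 3.35 and 1.69, and the difference was 1.66 ± 0.32 (SE, adjusted p = 0.0389). Without the 3 arrays it was 1.68 and not called (adjusted p = 0.219), which left 1 chemokine called. The lung was above the node at day 4 and below it at week 2.

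Of 24 interferon-stimulated genes measured, 4 passed with a positive difference (16.7%, against 0.248% of all genes), all 24 estimates were above 0, and the median difference was 0.88 against -0.01 for all genes. In the lung 19 of the 24 fell (2.20% of all genes did), with a median change of -1.65, and in the node 5 fell (1.68% of all genes), with a median of -0.75. The mean of the list was 6.57, 6.75 and 6.64 on the day 4 lung arrays and 6.57, 5.84 and 6.25 on the day 4 node arrays, with group means of 6.65 and 6.22. At week 2 it was 4.93, 5.04 and 5.07 in the lung and 5.57, 5.61 and 5.47 in the node, without overlap, with means of 5.01 and 5.55. The lung thus had the higher mean at day 4 and the lower one at week 2. Untreated lung arrays read 5.20 and 5.27. Without the 3 lung arrays highest in macrophage markers the limma fit called 0 of the 24 (12 at an unadjusted p under 0.05, against 14 with all 12 arrays), with a median of 0.82, and 0 to 4 passed when any 1 array was left out.

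The promoters of 2 of the 4 that passed are shown because their letters hold the core of the element that interferon-activated factors bind, GAAA, any 2 bases and GAAA, in capitals on either strand. The sequences are from RefSeq (GRCm38.p6), from 250 bases before the annotated start to 50 after. In Ifit1 (chr19:34640639-34640938, plus strand) the 2 matches lie on the opposite strand, and in Bst2 (chr8:71537423-71537722, minus strand) the 2 matches share bases.
Ifit1: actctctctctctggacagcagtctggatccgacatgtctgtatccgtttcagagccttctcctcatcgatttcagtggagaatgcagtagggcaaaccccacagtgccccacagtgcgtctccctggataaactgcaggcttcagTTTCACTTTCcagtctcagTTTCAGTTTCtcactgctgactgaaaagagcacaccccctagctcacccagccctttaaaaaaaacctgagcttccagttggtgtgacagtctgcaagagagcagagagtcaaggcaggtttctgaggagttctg
Bst2: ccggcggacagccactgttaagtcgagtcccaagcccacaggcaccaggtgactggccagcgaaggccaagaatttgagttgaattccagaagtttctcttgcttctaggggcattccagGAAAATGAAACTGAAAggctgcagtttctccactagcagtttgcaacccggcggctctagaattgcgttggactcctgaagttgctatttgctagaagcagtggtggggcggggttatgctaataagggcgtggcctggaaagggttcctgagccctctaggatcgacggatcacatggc
Promoters were found for 18 of the 24 genes, not among them Rtp4 and Zbp1, which passed but could not be examined. Of the 18, 13 held the core (72.2%), against 3.49% of 27025 promoters. A match is a description of the letters and not a bound site.

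Ifit1, which binds foreign RNA caps, read 7.51, 7.57 and 7.82 in the day 4 lung and 4.88, 4.26 and 4.05 in the week 2 lung. Its node signals were 7.24, 5.62 and 6.73 at day 4 and 5.51, 5.84 and 5.37 at week 2. The lung times were far apart and the node times overlapped. The difference was 2.28 ± 0.46 (SE, adjusted p = 0.0476). Rtp4, an interferon-induced receptor transport protein, went from 7.62, 7.84 and 7.95 to 4.76, 5.36 and 4.66 in the lung, with node signals of 7.80, 6.46 and 7.68 at day 4 and 6.61, 6.35 and 6.45 at week 2. Its difference was 2.03 ± 0.41 (SE, adjusted p = 0.0487).

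Bst2, the tetherin that holds budding virions at the membrane, fell by 2.26 in the lung against a node change of -0.25, and its difference was 2.01 ± 0.40 (SE, adjusted p = 0.0471). Zbp1, a sensor of Z-form nucleic acid, fell by 2.19 in the lung against -0.74 in the node (adjusted p = 0.0871), a difference of 1.45 ± 0.29 (SE, adjusted p = 0.0471). Members that did not pass included Isg15, with a lung fall of 2.37 and a difference of 1.46 (adjusted p = 0.212), and Irf7, with a lung fall of 1.32 and a difference of 0.89 (adjusted p = 0.164).

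Some negative genes known from cell division, such as Kif14 and Kif18a, were not on the list of mitosis genes described here. Genes on that list were 15 of the 47 negative genes. Of 29 measured, these 15 passed, all negative (51.7%, against 0.212% of all genes), all 29 estimates were below 0, and the median difference was -1.55. All 29 fell in the node (1.68% of all genes did), with a median change of -3.12, and 24 fell in the lung (2.20% of all genes), with a median of -1.59. The list mean was 7.18, 7.86 and 7.32 on the day 4 node arrays and 5.94, 5.59 and 5.68 on the day 4 lung arrays, without overlap. By week 2 it was 4.53, 4.38 and 4.42 in the node and 4.21, 4.24 and 4.16 in the lung, closer but again without overlap. Untreated lung arrays read 4.02 and 3.82. Without the 3 lung arrays highest in macrophage markers 4 of the 29 passed, with a median of -1.60, and Kif23 was among those lost (adjusted p = 0.0546), and 6 to 15 passed when any 1 array was left out.

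Promoters of 3 called mitosis genes are shown because they hold the 2 elements known from late cell cycle promoters. These are the cell cycle genes homology region (CHR, TTTGAA or TTCGAA) and the CCAAT box, in capitals on either strand. The sequences are from RefSeq (GRCm38.p6) over the same 300 bases around the start. Ccnb2 lies at chr9:70421505-70421804 (minus strand), Kif23 at chr9:61946750-61947049 (minus strand) and Cenpf at chr1:189688037-189688336 (minus strand).
Ccnb2: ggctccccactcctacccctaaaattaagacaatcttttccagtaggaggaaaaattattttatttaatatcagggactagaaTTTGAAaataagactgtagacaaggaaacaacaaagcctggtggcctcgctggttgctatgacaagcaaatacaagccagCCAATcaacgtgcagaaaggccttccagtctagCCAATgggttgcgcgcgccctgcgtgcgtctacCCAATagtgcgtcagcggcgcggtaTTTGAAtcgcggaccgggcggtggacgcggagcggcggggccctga
Kif23: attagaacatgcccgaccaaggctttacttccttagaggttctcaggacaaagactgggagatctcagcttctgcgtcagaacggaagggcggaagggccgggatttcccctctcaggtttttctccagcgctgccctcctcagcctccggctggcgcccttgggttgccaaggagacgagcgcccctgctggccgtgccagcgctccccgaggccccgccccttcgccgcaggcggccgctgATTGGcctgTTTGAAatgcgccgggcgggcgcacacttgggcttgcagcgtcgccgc
Cenpf: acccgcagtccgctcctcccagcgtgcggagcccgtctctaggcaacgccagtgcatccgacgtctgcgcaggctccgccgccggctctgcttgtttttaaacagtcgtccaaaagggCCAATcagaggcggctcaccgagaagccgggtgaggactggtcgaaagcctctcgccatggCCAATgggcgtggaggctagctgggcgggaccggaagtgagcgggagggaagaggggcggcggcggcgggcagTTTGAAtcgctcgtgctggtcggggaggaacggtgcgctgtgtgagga
Each of the 3 has a CHR match close to the annotated start, and the matches of the 2 elements share no bases. Of 25 mitosis genes with a RefSeq promoter, 21 held a CHR (84%, against 19.4% of 27025 promoters) and 19 held a CCAAT box (76%, against 37.9%). The same counts for the 18 interferon-stimulated promoters were 4 and 5. These are counts of letters and say nothing of binding.

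Ccna2 encodes cyclin A2, which drives S phase and entry into mitosis. It had the most negative difference of the 102 genes. Its node signals went from 8.34, 9.02 and 8.35 at day 4 to 4.41, 4.18 and 3.72 at week 2. In the lung they went from 6.55, 6.02 and 5.96 to 4.18, 4.37 and 4.02. The node was above the lung at day 4 and overlapped it at week 2. The falls were 4.47 and 1.99, and the difference was -2.48 ± 0.32 (SE), a 5.56-fold difference in change (adjusted p = 0.00509).

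Nuf2, a kinetochore protein, read 7.10, 7.62 and 7.02 in the day 4 node and 5.68, 4.66 and 5.30 in the day 4 lung. At week 2 it read 3.15, 3.57 and 3.21 in the node and 3.60, 3.68 and 3.37 in the lung, which overlap. The difference was -2.27 ± 0.34 (SE, adjusted p = 0.00917). Cenpf, a centromere protein, went from 6.59, 6.83 and 7.01 to 3.99, 3.50 and 3.49 in the node and from 4.87, 4.74 and 4.65 to 3.57, 3.60 and 3.65 in the lung, with a difference of -2.00 ± 0.23 (SE, adjusted p = 0.00328). Ccnb2, a cyclin of the G2 to M transition, fell by 3.64 in the node and 1.77 in the lung, with a difference of -1.87 ± 0.31 (SE, adjusted p = 0.0199).

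For some kinesins the lung change was small. Kif18a, a motor that aligns chromosomes, read 6.12, 6.67 and 6.40 in the day 4 node and 4.01 to 4.51 on the 9 other arrays. Its lung change was -0.10 (adjusted p = 0.842), its node fall 2.10, and the difference -1.99 ± 0.25 (SE, adjusted p = 0.00328). Kif23, a motor of the central spindle needed for cytokinesis, read 7.22, 7.69 and 7.40 in the day 4 node and 5.13, 4.34 and 4.49 in the week 2 node. In the lung it read 6.05, 5.95 and 6.09 at day 4 and 5.35, 5.47 and 5.56 at week 2, a change of -0.57 that did not pass (adjusted p = 0.145). The difference for Kif23 was -2.21 ± 0.27 (SE, adjusted p = 0.00328), and by week 2 the lung was the higher tissue. Kif14, another cytokinesis motor, had a lung change of -0.62 (adjusted p = 0.133) and a difference of -2.18 (adjusted p = 0.00514). The day 4 lung means of Kif18a and Kif14 were 4.27 and 4.32, near the median signal of 4.16. A larger lung fall in these genes could have shown only within the dim range. Nuf2, Cenpf, Hmmr, Depdc1a and Ttk also ended dim in the lung, with week 2 means of 3.55, 3.61, 2.68, 2.56 and 3.16. Ccnb2 and Kif23, at 5.70 and 5.46, did not. The calls for Kif18a (adjusted p = 0.0601) and Kif14 (adjusted p = 0.0694) were lost without the 3 lung arrays highest in macrophage markers.

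The other named genes known from cell division, Prr11, Arhgap19, Hmmr, the spindle motor Kif15, Depdc1a and the checkpoint kinase Ttk, had differences between -2.19 and -1.86. Mki67, which encodes the proliferation antigen Ki-67, fell in both tissues, by 3.36 in the node and 2.29 in the lung. Its signals were 9.26, 9.76 and 9.54 in the day 4 node, 8.34, 7.84 and 7.97 in the day 4 lung, 6.20, 6.16 and 6.13 in the week 2 node and 5.90, 5.96 and 5.42 in the week 2 lung. The node was above the lung at both times, and the difference of -1.07 ± 0.26 (SE) did not pass (adjusted p = 0.110). Ube2c and Ndc80 also fell steeply in both tissues, and their differences of -0.75 and -0.91 did not pass.

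Of 24 measured genes of DNA replication, 18 fell in the node (1.68% of all genes did) and 10 in the lung (2.20% of all genes). The median difference was -0.43, and 1 passed with a negative difference (0.212% of all genes did). That gene was Cdc6, which loads the replicative helicase, with a difference of -1.37 ± 0.27 (SE, adjusted p = 0.0476). Cdc6 was not called without the 3 lung arrays highest in macrophage markers (adjusted p = 0.104). It read 5.37, 5.63 and 5.47 in the day 4 node and 4.47, 4.47 and 4.05 in the day 4 lung. At week 2 its signals were 3.05, 3.81 and 3.67 in the node and 3.85, 3.69 and 3.61 in the lung, which overlap. Of 12 measured histone genes 7 fell in the node (1.68% of all genes did). In the lung 3 fell (2.20% of all genes) and 1 rose (0.920% of all genes). Their median difference was -1.05, and limma called 0 (7 at an unadjusted p under 0.05).

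**Figure D4:**
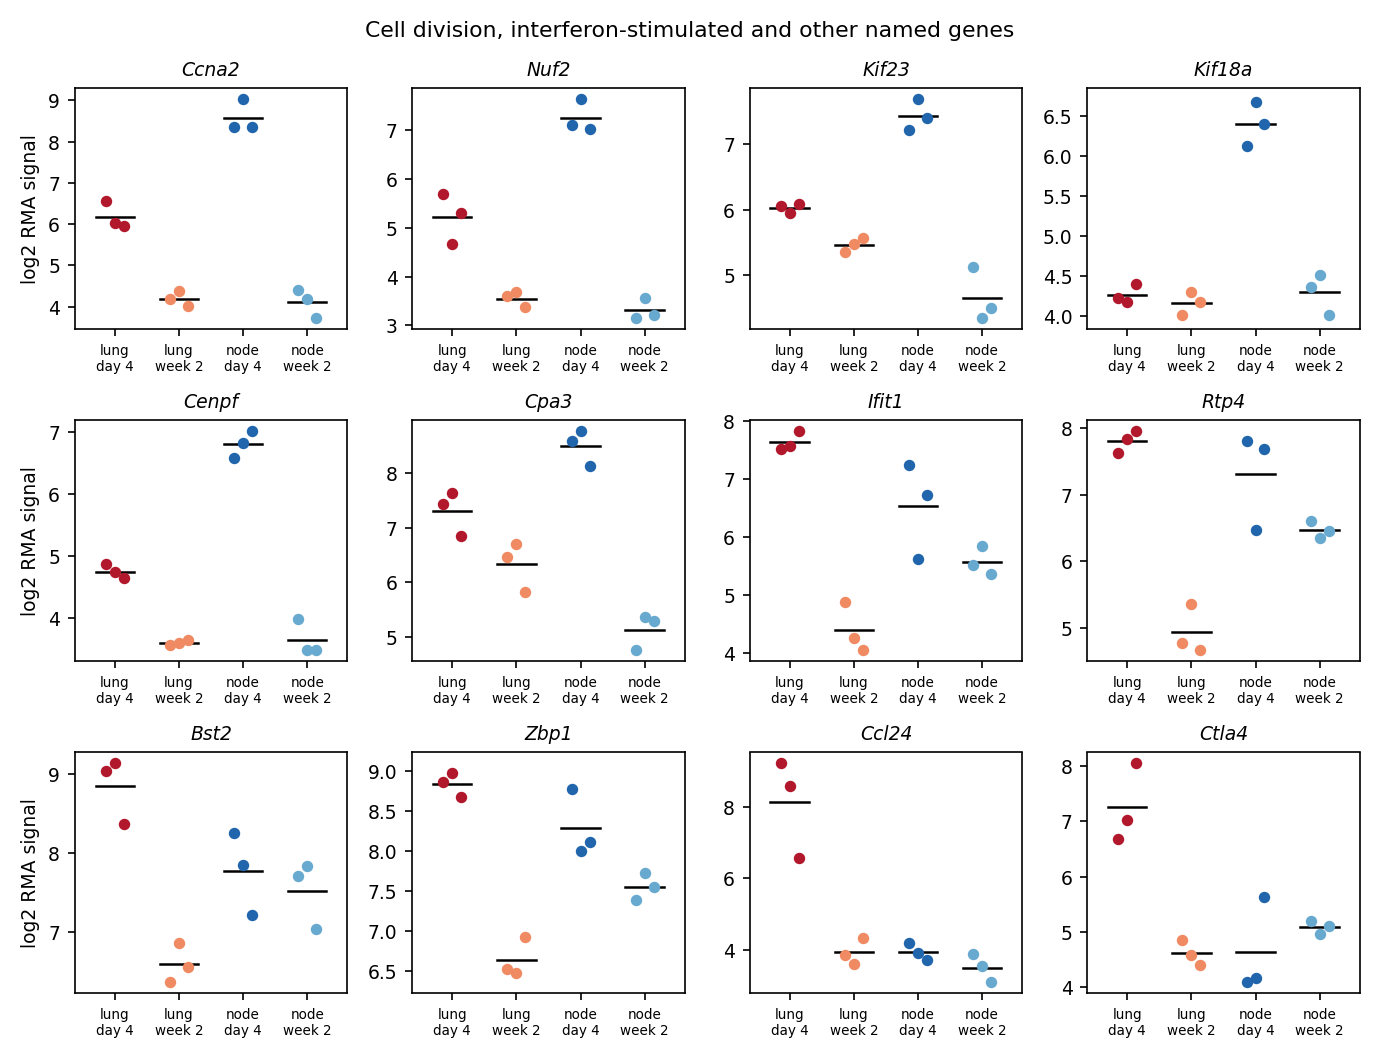
Log2 signal (vertical axis) of 12 called genes on each of the 3 arrays of the 4 groups, with the group mean as a line. Ccna2, Nuf2, Kif23, Kif18a and Cenpf are highest in the day 4 node, Cpa3 is highest there too and lowest in the week 2 node, and Ifit1, Rtp4, Bst2 and Zbp1 are lowest in the week 2 lung.

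Cpa3, the carboxypeptidase of mast cell granules, was also among the 14 most negative genes. It read 8.60, 8.77 and 8.14 in the day 4 node and 4.75, 5.35 and 5.28 in the week 2 node. In the lung it read 7.44, 7.63 and 6.84 at day 4 and 6.46, 6.71 and 5.81 at week 2. The node was above the lung at day 4 and below it at week 2, without overlap. The node fall of 3.38 passed, the lung change of -0.98 did not (adjusted p = 0.0660), and the difference was -2.40 ± 0.38 (SE, adjusted p = 0.0150). The other 11 of 12 mast cell and basophil effector genes did not pass, and the mean of the list was 2.94 to 3.30 on all 12 arrays.

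**Figure D5:**
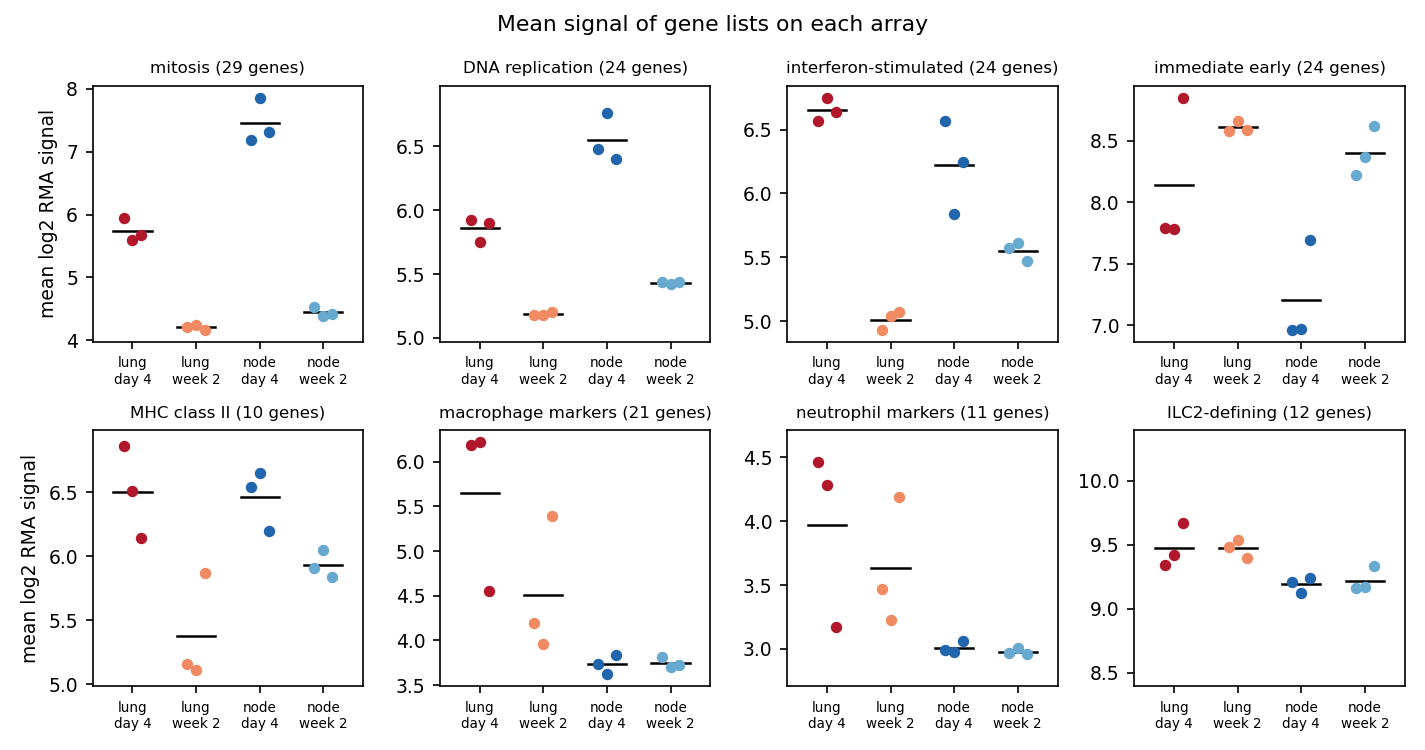
Mean log2 signal (vertical axis) of 8 gene lists on each of the 3 arrays of the 4 groups, with the group mean as a line. The mitosis list is far apart between the tissues at day 4 and close at week 2, the interferon-stimulated list has its higher mean in the lung at day 4 and in the node at week 2, replicate 3 is the highest day 4 array for immediate early genes in both tissues, and macrophage and neutrophil markers are uneven over the lung arrays.

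Several groups had no or few called members. Among 17 cholesterol and fatty acid synthesis genes 1 passed (0.460% of all genes did), Cyp51, a sterol demethylase. Its lung fall was 0.72 and its difference 1.07 ± 0.22 (SE, adjusted p = 0.0485). It was 1.36 and not called (adjusted p = 0.0787) without the 3 lung arrays highest in macrophage markers. Of 10 measured MHC class II genes 7 fell in the lung (2.20% of all genes did) and 0 in the node (1.68% of all genes). For the difference limma called 0 of them (3 at an unadjusted p under 0.05). Its median was 0.78, and 0.45 without the 3 arrays. Their mean was 5.16, 5.11 and 5.87 on the week 2 lung arrays, highest on replicate 3 as for the macrophage markers. The limma test called no gene among 16 of the unfolded protein response, 14 of glycolysis and hypoxia, 12 ribosomal proteins, 18 of oxidative phosphorylation, 17 of ribosome biogenesis, 14 of NF-kB feedback, 11 heat shock genes, 18 of lipid uptake and oxidation, 12 of the BCL2 family or 13 of cytokine feedback. At an unadjusted p under 0.05 these lists held between 0 and 5 genes, and their median differences lay between -0.04 and 0.39. It also called no gene in the marker lists of T cells, B cells, natural killer cells, dendritic cells, ILC3s, eosinophils, neutrophils, epithelium and endothelium, and node stroma, with 0 to 4 genes at an unadjusted p under 0.05 and median differences of -0.10 to 0.19. Among the ILC2 genes named by rule and not yet given, Icos, Klrg1, Thy1, Arg1, Bcl2 and Il6 had differences of -0.18, 0.47, -0.47, 0.34, 0.15 and 0.97, and none of these passed.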

How the data were processed

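Expression was measured on 16 single-colour arrays of total RNA, of which 12 enter the contrast. The submitters' processing notes name Affymetrix Expression Console and RMA, without versions, as the tools behind the deposited log2 values, which stand as a signal for every probe set. Because RMA gives all arrays a shared distribution, cells with more or less RNA in total look alike. Of 41345 probe sets, 23521 have 1 gene symbol in the platform annotation, 1814 several and 16010 none. For 1082 genes with more than 1 probe set the one with the highest mean was used, leaving 22180 genes. Without scanner files, detection above background could not be assessed.

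Group means were fitted to the 12 arrays with limma 3.58.1 (R 4.3.3), with no block, trend or filter, 8 residual and 6.02 prior degrees of freedom. A gene was called if its two-sided p, adjusted by Benjamini and Hochberg's method across the 22180 genes, was under 0.05. Replicate numbers were not used to pair samples. The number of arrays limits the precision.

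The contrast and gene lists were chosen with earlier results of these data known. Lists are described by counts and medians, without a test of the list. The text names the 14 largest called differences each way (leaving out predicted genes, antigen receptor segments, olfactory and vomeronasal receptors and small RNAs), up to 4 called members per list, and 24 fixed ILC2 genes. For histones, older symbols were matched through synonyms, with 12 of 32 measured, and 0 of 6 red blood cell markers were measured. Promoter sequences are RefSeq's, 1 per gene (the first listed). Alternatives were median centring, repeated quantile normalization, a filter on dim genes, trend and robust options, array weights, the mean of probe sets, replicate blocks, all 16 arrays, a minimum log2 size of 1 and each array left out in turn. The 2 added after seeing the data were leaving out the 3 lung arrays highest in macrophage markers and using the marker mean as a covariate. The first of these keeps only replicate 3 of the day 4 lung. Plots were made in Python 3.11.15 (matplotlib 3.10.9).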

Additional observations from a re-analysis of the deposited data

Results flagged for a closer look

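The 39 named genes below passed the test that their change from day 4 to week 2 differs between the lung and the node, and each value is that difference on the log2 scale (limma, 3 arrays per group).

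Positive differences among genes highest in the day 4 lung were those of Tff1 (3.65), Bex1 (3.47), Asic3 (2.77), Mt2 (2.49), Itgae (2.41), Cd63 (2.18), Adgrg1 (2.16), Nrgn (2.07) and Il1r2 (2.15). Immune receptors, ligands and factors with positive differences were Ctla4 (3.10), Lag3 (2.05), Tigit (1.96), Tnfsf8 (1.25), Egr2 (2.34), Irf4 (1.55), Il4 (1.16), Ccl24 (3.77) and Cxcl3 (1.66), to which the sterol gene Cyp51 (1.07) adds. The interferon-stimulated genes were Ifit1 (2.28), Rtp4 (2.03), Bst2 (2.01) and Zbp1 (1.45).

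Negative differences belonged mainly to cell division genes, Ccna2 (-2.48), Nuf2 (-2.27), Kif23 (-2.21), Prr11 (-2.19), Kif14 (-2.18), Arhgap19 (-2.07), Hmmr (-2.02), Cenpf (-2.00), Kif18a (-1.99), Depdc1a (-1.96), Kif15 (-1.93), Ccnb2 (-1.87), Ttk (-1.86) and Cdc6 (-1.37). Outside cell division they were Cpa3 (-2.40) and Ccr2 (-1.40).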

How the results depend on the processing

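All 897 estimates for the 39 called named genes under the alternatives kept their sign, and 599 were still called. Tff1, Bex1, Asic3, Itgae, Egr2, Lag3, Ccna2, Cenpf and Ccr2 were called under all 23 alternatives each. Ifit1, Prr11, Il4 and Cyp51 were lost in 17 and Cdc6 in 18. The count of 102 genes became 40 with all 16 arrays, 62 without the 3 lung arrays highest in macrophage markers and 44 with the marker mean as a covariate. It ranged from 34 to 113 when 1 array was left out, lowest without week 2 lung replicate 2, and leaving out arrays also lowers the number of samples. The 691 lung changes became 401 with all 16 arrays, 1342 with array weights, 151 without the 3 arrays, 228 with the covariate and 291 at a log2 size of at least 1, with 342 to 875 when 1 array was left out. The 556 node changes became 300 at that size, with 345 to 626 when 1 array was left out. The cause of these shifts was not tested.

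Same-numbered lung and node arrays correlated in their deviations from group means by 0.01 to 0.18. Differently numbered arrays were not compared, so these values do not settle whether the numbers pair the samples. The main fit did not pair them, although replicate 3 was the highest day 4 array in both tissues for immediate early genes. The fit with the replicate block called 80 genes (69 of the 102), or 68 (50 of the 102) with the replicate block within time point. With 3 arrays a group and signals under about 4 in the dim range, small differences of dim genes are not resolved.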

Other observations

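Genes outside the rule for named genes, chosen here after their values were seen, added other shapes. Rps27, a ribosomal protein gene with many near-identical copies, read 6.82, 6.77 and 6.84 in the day 4 lung and 6.85, 6.66 and 6.97 in the week 2 lung. In the node it rose from 6.00, 6.04 and 5.97 to 7.22, 7.48 and 7.44, a difference of 1.36 (limma, adjusted p = 0.00679). Atp8a2, a phospholipid flippase gene, read 3.76 to 4.06 on the 6 lung arrays and rose in the node from 6.01, 5.62 and 5.72 to 7.38, 7.60 and 7.42, a difference of 1.46 (adjusted p = 0.00514). Alox5, the lipoxygenase that starts leukotriene synthesis, fell in the node from 8.68, 8.30 and 8.25 to 7.26, 7.28 and 7.39. Its lung signals were 7.66, 7.40 and 7.35 at day 4 and 7.83, 7.93 and 7.89 at week 2, and the difference was -1.51 (adjusted p = 0.00641). Itga2, a collagen-binding integrin chain, had a node fall of 0.92 and a difference of -1.30 (adjusted p = 0.00887). Timp2, a metalloproteinase inhibitor, had a lung fall of 1.93 and a difference of 1.88 (adjusted p = 0.00871). Foxm1, the transcription factor of late cell cycle genes, fell by 2.42 in the node and 0.92 in the lung, a difference of -1.51 (adjusted p = 0.0306).

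Of the 102 called genes, 29 overlap another measured gene in the annotation, where signals may not be separate. Ttc39c (1.60) and the microRNA gene Mir1948 (1.96) are such a pair, both with a lung fall. Pmch, a neuropeptide gene, fell by 2.49 in the node with a difference of -1.66, and the overlapping Parpbp had a node change of -1.81 and a difference of -0.78 (adjusted p = 0.365).

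The gene of Mir3066 lies within Nol10, whose difference was 0.04 (adjusted p = 0.976). The Mir3066 probe set read 4.81, 4.55 and 4.94 in the day 4 lung and 3.98, 3.51 and 4.07 in the week 2 lung. Its node signals were 4.20, 4.76 and 3.88 at day 4 and 5.62, 5.66 and 5.22 at week 2, a difference of 2.13 (adjusted p = 0.00984). These arrays measure total RNA and cannot tell a mature miRNA from its precursor. Its 2 mature sequences in RefSeq (GRCm38.p6, chr12:17355404-17355425 and chr12:17355441-17355462, plus strand) are shown with the seed, bases 2 to 8, in capitals, and the seeds are different.
mmu-miR-3066-5p: uUGGUUGCuguagauuaaguag
mmu-miR-3066-3p: cACUUAAUagaccgcaaccugc

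Some of the biggest estimates did not pass. Rnase2a, an eosinophil-type ribonuclease, read 10.41, 10.01 and 5.68 in the day 4 lung, 2.77, 2.77 and 4.60 in the week 2 lung and 2.52 to 3.00 in the node, a difference of 5.52 (adjusted p = 0.0816). Ccl17, a chemokine for CCR4, read 10.55, 10.24 and 4.41 in the day 4 lung and 3.43, 3.64 and 4.85 in the week 2 lung, a difference of 3.45 (adjusted p = 0.503). In both genes day 4 lung replicate 3 was far below the other 2 arrays and week 2 lung replicate 3 above its group, as for the macrophage markers, whose part in this was not tested. Scgb1a1, the club cell secretoglobin, read 9.92, 7.97 and 7.58 in the day 4 lung and 11.02, 10.17 and 6.31 in the week 2 lung. Its node signals were 8.58, 2.78 and 4.77 at day 4 and 2.60 to 4.08 at week 2, and its difference of -2.63 did not pass (adjusted p = 0.699).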
